A study of Mus musculus with 9 samples.

Results

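The 8 genes described here encode the co-activators YAP (Yap1) and TAZ (Wwtr1), the 4 TEAD DNA-binding proteins that carry them to chromatin (Tead1 to Tead4), and 2 vestigial-like cofactors of TEAD (Vgll3 and Vgll4). They were taken by gene name from a deposited expression table of 48640 rows. Each name stood on 1 row. The study asked which kinds of colonies come out of mouse embryonic fibroblast (MEF) cultures that are reprogrammed with or without extra YAP, and sampled them after 75 days. Control iPSCs (induced pluripotent stem cells) came from MEFs transduced with an empty vector and were positive for the Oct4:GFP reporter of pluripotency. YAP-culture iPSCs came from MEFs transduced with YAP, and their sample labels give Oct4:GFP+YAPmCherry+ as genotype but state in the titles that YAP overexpression was lost. YAP colonies were the non-pluripotent, YAPmCherry+ colonies of YAP-transduced cultures. All vectors were lentiviral, all cells were reprogrammed in ES cell medium with 1 ug/mL doxycycline, and the iPSCs and colonies were kept on feeder cells, the colonies with doxycycline still present. A difference in doxycycline between colonies and iPSCs at sampling cannot be told apart from one of cell type. Each group had 3 libraries of polyadenylated RNA. Nothing in the labels says whether these were separate cultures. The p-values therefore refer to the spread among the deposited libraries alone, which may be technical.

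YAP and TAZ are the transcriptional outputs of the Hippo pathway. They bind no DNA themselves. When the kinases LATS1 and LATS2 phosphorylate them they are held in the cytoplasm or degraded, and otherwise they enter the nucleus and join TEAD proteins, which recognise a short element in enhancers and promoters. VGLL proteins bind the same surface of TEAD. VGLL4 competes with YAP for it and acts as an antagonist, while VGLL3 is a TEAD cofactor known from muscle and connective tissue. In the early mouse embryo, TEAD4 with YAP and TAZ specifies trophectoderm, and Hippo signalling keeps them out of the nucleus in the inner cell mass.

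All values are FPKM (fragments per kilobase of transcript scaled to the mapped fragments of its library), a per-length level that allows different genes to be compared. The libraries summed to 509321 to 634471 FPKM, which is not a read count, and the depth is unknown. Protein-coding rows held 47.2% to 58.5% of these sums and pseudogene rows 37.5% to 50.8%. The second YAP-culture iPSC library had the lowest coding share and the highest pseudogene share. Differences were tested with limma on log2(FPKM + 1) over 13808 rows, those whose mean over the libraries reached 1 FPKM. A gene is said to rise or fall if its Benjamini-Hochberg adjusted p was below 0.05 and its log2 fold change was at least 1 in size. All 8 genes were tested. Vgll3 passed the filter on low values only through the colonies, since its mean over the 6 iPSC libraries was 0.944 FPKM. The 8 pluripotent-cell markers examined summed to 4855 to 6645 FPKM in the iPSC libraries and 421 to 501 FPKM in the colonies. Most of the iPSC sums came from Dppa5a (means 3947 and 4660 FPKM in control and YAP-culture iPSCs), and most of the colony sums from Pou5f1 (281 FPKM). Nanog and Sox2 were at means of 132 and 33.7 FPKM in the colonies. Of these markers 7 were lower in every colony library than in any iPSC library, and Pou5f1 was higher, where 27.5% of tested genes were lower and 28.1% higher in this way. Whether any of the Pou5f1 or Sox2 value came from a reprogramming transgene cannot be read from a gene-level value. The third YAP-culture iPSC library stood apart from its group. It correlated at 0.969 with the second control iPSC library and at 0.944 and 0.934 with the other YAP-culture libraries, across tested genes.

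Summed FPKM of the co-activators and of the TEADs was higher in every colony library than in any iPSC library, and the genes differed in how much they contributed. TAZ, VGLL3 and VGLL4 transcripts rose against both iPSC groups, 3.02- to 14.9-fold as ratios of mean FPKM. Of these, Vgll3 passed the filter on low values only through the colonies. Tead3 rose against the YAP-culture iPSCs and stayed just under the fold threshold against control iPSCs, and Yap1, Tead1, Tead2 and Tead4 passed the fold threshold in neither comparison. Between the iPSC groups none of the 8 genes rose or fell, where 1.39% of tested genes did. In these bulk libraries a change in RNA per cell and a change in the share of expressing cells cannot be told apart.

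The promoters are shown first, because TEAD proteins are both members and readers of the element searched for. RefSeq promoter windows (build GRCm38.p6, from 250 bases before to 50 bases after a transcript start) were matched for 6 of the 8 genes, with 9 windows in all, and none for Tead1 and Tead4. The core TEAD element was searched as GGAATG on both strands, which reads CATTCC on the other strand. It stood in 7 of the 9 windows and in 5 of the 6 genes, against 14.7% of 32851 windows and 16.6% of 27025 genes in the same table. The next lines give, 5′ to 3′ on the strand of the gene, 1 window for each gene with a match, and capitals mark the element.
Yap1, chr9:8004547-8004846, minus strand: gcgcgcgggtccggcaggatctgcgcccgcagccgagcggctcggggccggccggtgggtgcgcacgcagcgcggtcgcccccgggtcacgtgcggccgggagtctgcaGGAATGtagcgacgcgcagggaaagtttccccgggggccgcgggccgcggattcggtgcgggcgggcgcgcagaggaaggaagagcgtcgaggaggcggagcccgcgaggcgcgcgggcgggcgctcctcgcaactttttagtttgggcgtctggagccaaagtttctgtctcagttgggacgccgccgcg
Wwtr1, chr3:57575861-57576160, minus strand: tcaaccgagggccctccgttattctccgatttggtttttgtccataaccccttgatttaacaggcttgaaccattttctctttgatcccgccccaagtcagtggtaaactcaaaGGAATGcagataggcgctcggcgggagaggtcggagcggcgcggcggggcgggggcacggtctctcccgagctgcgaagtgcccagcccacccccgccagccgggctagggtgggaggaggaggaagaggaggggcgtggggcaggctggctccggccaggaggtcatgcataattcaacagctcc
Tead3, chr17:28350551-28350850, minus strand: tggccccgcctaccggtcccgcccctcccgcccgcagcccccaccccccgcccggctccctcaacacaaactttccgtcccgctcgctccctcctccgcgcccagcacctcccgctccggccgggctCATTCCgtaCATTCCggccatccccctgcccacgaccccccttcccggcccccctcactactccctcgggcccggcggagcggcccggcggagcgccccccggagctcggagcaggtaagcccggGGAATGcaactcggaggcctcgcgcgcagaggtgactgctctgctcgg
Vgll3, chr16:65814939-65815238, plus strand: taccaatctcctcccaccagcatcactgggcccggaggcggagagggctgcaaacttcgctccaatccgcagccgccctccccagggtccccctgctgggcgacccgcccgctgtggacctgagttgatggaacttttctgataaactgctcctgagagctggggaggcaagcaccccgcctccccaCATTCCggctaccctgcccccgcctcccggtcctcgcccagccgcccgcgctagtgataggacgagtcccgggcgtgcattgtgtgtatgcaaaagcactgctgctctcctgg
Vgll4, chr6:114969154-114969453, minus strand: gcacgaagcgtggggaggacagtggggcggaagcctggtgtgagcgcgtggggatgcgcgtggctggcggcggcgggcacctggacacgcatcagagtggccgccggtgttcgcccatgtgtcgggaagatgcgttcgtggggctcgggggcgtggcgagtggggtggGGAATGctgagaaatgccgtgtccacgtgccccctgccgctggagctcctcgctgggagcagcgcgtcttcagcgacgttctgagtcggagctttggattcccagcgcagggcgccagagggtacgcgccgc

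The element lay between positions -141 and -136 from the start in Yap1, -136 and -131 in Wwtr1, -63 and -58 in Vgll3, and -82 and -77 in Vgll4. The Tead3 window held it 3 times, from positions -123, -114 and 2. Of the other Tead3 windows 1 held it once and 1 did not, and the second Wwtr1 window overlaps the first and contains the same match. The Tead2 window had no match. Of the genes that rose in the colonies, Wwtr1, Tead3, Vgll3 and Vgll4, each had a match, as did Yap1, which did not pass the fold threshold. Vgll3 had passed the filter on low values only through the colonies. The AP-1 element TGANTCA, which often accompanies TEAD elements in enhancers, stood in 0 of the 9 windows and in 7.81% of all windows. The octamer ATGCAAAT read by OCT4 was also in 0 of 9, against 1.74% of all. The E-box CACGTG was in 2 of 9 (Yap1 and Vgll4), against 7.15% of all, and the GC box GGGCGG in 9 of 9, against 35.7% of all. The member windows were 61.3% to 75.3% G and C, and the median of all windows was 52.7%. These matches describe the letters and were not tested. No binding data were examined.

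Yap1 is the gene whose product was supplied by the vector. Its row (ENSMUSG00000053110, mm10 chr9:7931999-8004596) read 45.8, 41.3 and 40.4 FPKM in the control iPSCs, 39.1, 32.5 and 36.7 in the YAP-culture iPSCs, and 60.9, 59.1 and 63.1 in the colonies. Every colony library was above every iPSC library, and the YAP-culture iPSCs were all below the control iPSCs. The means were 42.5 ± 2.86, 36.1 ± 3.36 and 61.0 ± 1.97 FPKM (SD, n = 3 each). Yap1 was therefore 1.69 times as high in colonies as in YAP-culture iPSCs (log2 fold change 0.74, SE 0.10, limma adjusted p = 2.11e-04) and 1.44 times as high as in control iPSCs (0.51, adjusted p = 0.00192), both under the fold threshold. The iPSC groups differed by -0.23 on the log2 scale, with a 95% interval of -0.46 to -0.0037 and an adjusted p of 0.159. Under median-ratio scaling of the libraries that interval was -0.37 to 0.049. How much of the Yap1 value came from the vector's own transcript cannot be read from a gene-level value.

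Wwtr1 encodes TAZ, the paralog of YAP, and the labels name no vector that carried it. Its row (ENSMUSG00000027803, chr3:57455649-57575910) read 5.54, 5.60 and 4.97 FPKM in control iPSCs, 9.17, 8.63 and 8.97 in YAP-culture iPSCs, and 25.3, 27.3 and 28.2 in colonies. The 3 groups did not overlap, and each was tight, with SDs of 0.346, 0.276 and 1.48 FPKM around means of 5.37, 8.93 and 26.9. TAZ RNA rose 3.02-fold from YAP-culture iPSCs to colonies (log2 fold change 1.49, SE 0.09, limma adjusted p = 1.29e-06) and 5.02-fold from control iPSCs to colonies (2.13, adjusted p = 1.44e-07). It was the only one of the 8 genes with an adjusted p below 0.05 between the iPSC groups, where it was 1.66 times as high in the YAP-culture iPSCs (0.64, 95% interval 0.44 to 0.84, adjusted p = 0.0119). The iPSC difference stayed under the fold threshold, and its adjusted p was 0.0602 without control iPSC library 1, 0.0598 without control iPSC library 3 and 0.0726 when only the iPSC libraries were fitted.

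**Figure D1:**
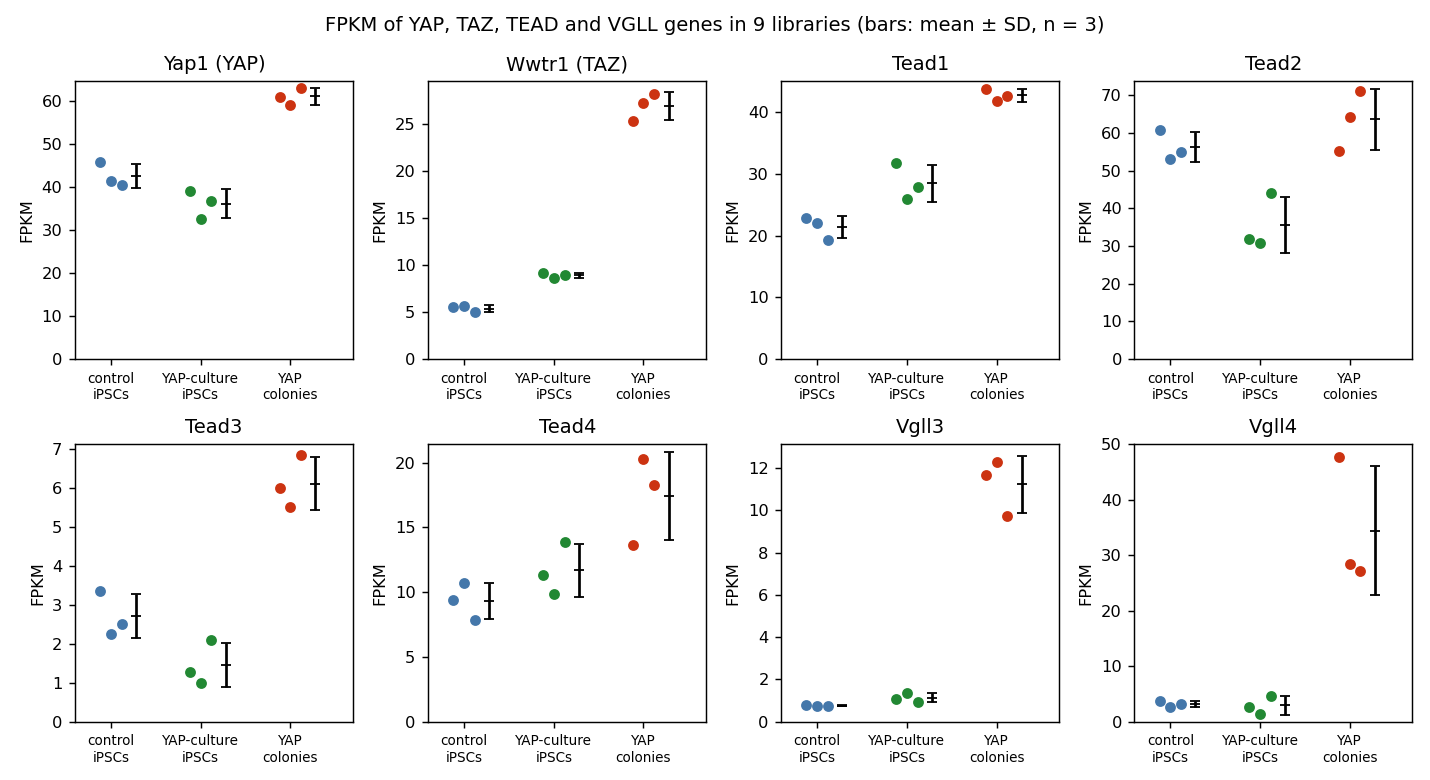
FPKM of the 8 genes in each library (points, numbered left to right within a group) with the group mean and SD (bars, n = 3), on linear axes that start at 0 and differ between panels. Wwtr1 lies near 5, 9 and 27 FPKM in the 3 groups, while Vgll3 and Vgll4 are low in all 6 iPSC libraries and higher in all 3 colony libraries.

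The balance of the co-activators moved with these levels. TAZ made up 10.8%, 11.9% and 10.9% of the summed Yap1 and Wwtr1 FPKM in control iPSCs, 19.0%, 21.0% and 19.6% in YAP-culture iPSCs, and 29.4%, 31.5% and 30.9% in colonies. The group means were 11.2 ± 0.619%, 19.9 ± 1.02% and 30.6 ± 1.12% (SD, n = 3). The groups did not overlap, and YAP remained the more abundant of the pair in all 9 libraries. The sum of both was similar in the iPSC groups, at 47.9 ± 3.07 and 45.0 ± 3.64 FPKM, and 88.0 ± 2.89 FPKM in the colonies. These shares and sums are descriptions without a test.

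Of the 4 TEAD genes, Tead3 alone passed both thresholds in a comparison. Tead1 (ENSMUSG00000055320, chr7:112679318-112906807) read 22.9, 22.0 and 19.4 FPKM in control iPSCs, 31.8, 25.9 and 27.9 in YAP-culture iPSCs, and 43.9, 41.8 and 42.6 in colonies. The 3 groups stood in steps without overlap. The mean was 28.5 ± 3.01 FPKM in YAP-culture iPSCs and 42.8 ± 1.04 in colonies (SD, n = 3; log2 fold change 0.57, limma adjusted p = 0.00149). The colonies were 2.00 times as high as the control iPSCs (log2 fold change 0.97, 95% interval 0.73 to 1.21, limma adjusted p = 5.82e-05). The second value lies just under the fold threshold, and Tead1 passed it without control iPSC library 1 (1.01), under quantile normalization (1.10) and when protein-coding rows alone were scaled to equal totals (1.10). The YAP-culture iPSCs exceeded control iPSCs by 0.39, with an interval of 0.15 to 0.64 and an adjusted p of 0.0692.

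Tead2, known for its expression in the early embryo, had the highest mean of the 4 TEAD genes in each group. Its row (ENSMUSG00000030796, chr7:45215753-45233644) read 60.8, 53.0 and 55.0 FPKM in control iPSCs, 31.8, 30.8 and 44.2 in YAP-culture iPSCs, and 55.2, 64.3 and 71.2 in colonies. The YAP-culture iPSCs were the low group, and the control iPSCs overlapped the colonies. Colonies were 1.79 times as high as YAP-culture iPSCs (log2 fold change 0.83, limma adjusted p = 0.00166), under the fold threshold. Against control iPSCs the difference was 0.17, with an interval of -0.19 to 0.53 and an adjusted p of 0.376. The YAP-culture iPSCs lay below control iPSCs by -0.66, with an interval of -1.02 to -0.30 and an adjusted p of 0.052.

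Tead3 was the scarcest TEAD transcript. It read 3.35, 2.26 and 2.51 FPKM in control iPSCs, 1.28, 0.987 and 2.09 in YAP-culture iPSCs, and 5.99, 5.50 and 6.83 in colonies (ENSMUSG00000002249, chr17:28331671-28350805). Colonies were highest and YAP-culture iPSCs lowest, with no overlap among the 3 groups. It rose 4.20-fold from YAP-culture iPSCs to colonies (log2 fold change 1.55, SE 0.19, limma adjusted p = 1.02e-04), a call that was lost with a pseudocount of 5 FPKM (0.79). Against control iPSCs the difference was 0.95 (2.26-fold as a ratio of mean FPKM, adjusted p = 0.00202), under the threshold. It passed with a pseudocount of 0.1 (1.16), without control iPSC library 1 (1.07), without colony library 2 (1.01) and with protein-coding rows scaled (1.05).

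Tead4, the trophectoderm-specifying TEAD of the embryo, read 9.42, 10.7 and 7.87 FPKM in control iPSCs, 11.3, 9.84 and 13.9 in YAP-culture iPSCs, and 13.7, 20.3 and 18.3 in colonies (ENSMUSG00000030353, chr6:128224288-128300823). The first colony library lay within the range of the YAP-culture iPSCs. The difference was 0.53 against them (log2 scale, interval 0.12 to 0.94, limma adjusted p = 0.0305) and 0.83 against control iPSCs (adjusted p = 0.00362), neither past the fold threshold. The first of these p-values rose to between 0.0566 and 0.11 in 5 of 19 alternative fits, among them the fits without YAP-culture library 1 (0.0752), YAP-culture library 2 (0.0949), colony library 2 (0.11) or colony library 3 (0.0901). The 9 trophoblast markers summed to 61.7 to 79.5 FPKM in control iPSCs, 29.6 to 42.5 in YAP-culture iPSCs and 5.39 to 6.27 in colonies. In colonies Cdx2 was listed at 0 and 7 of the 9 markers had means under 1 FPKM. Most of the iPSC sums came from Tfap2c, at means of 50.23, 19.13 and 2.996 FPKM in the 3 groups. Plet1 was instead higher in YAP-culture iPSCs (7.85 to 10.9 FPKM) than in control iPSCs (4.02 to 4.90 FPKM). Without overlap, all 9 markers were lower in colonies than in control iPSCs, where 39.2% of tested genes were. Likewise 6 were lower than in YAP-culture iPSCs, where 31.5% of tested genes were. These shares are over genes with a mean of at least 1 FPKM, whereas the markers were not filtered, so they are not like for like.

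Within the TEAD family, Tead2 supplied 62.7 ± 2.32% of the summed TEAD FPKM in control iPSCs, 45.9 ± 4.22% in YAP-culture iPSCs and 48.8 ± 2.37% in colonies (SD, n = 3). Tead1 supplied 23.9 ± 1.09%, 37.2 ± 5.13% and 33.1 ± 3.36%. The control iPSCs did not overlap the other groups in either share, and the latter overlapped each other. Tead4 supplied 10.4 ± 1.53%, 15.1 ± 0.647% and 13.3 ± 1.95%, and Tead3 3.00 ± 0.457%, 1.84 ± 0.476% and 4.71 ± 0.469%. Summed TEAD RNA was 89.7 ± 6.04, 77.3 ± 10.3 and 129.9 ± 10.3 FPKM. The ratio of summed co-activators to summed TEADs was 0.534 ± 0.00185, 0.587 ± 0.0604 and 0.679 ± 0.0403, and summed TEAD FPKM exceeded that of YAP and TAZ in all libraries.

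**Figure D2:**
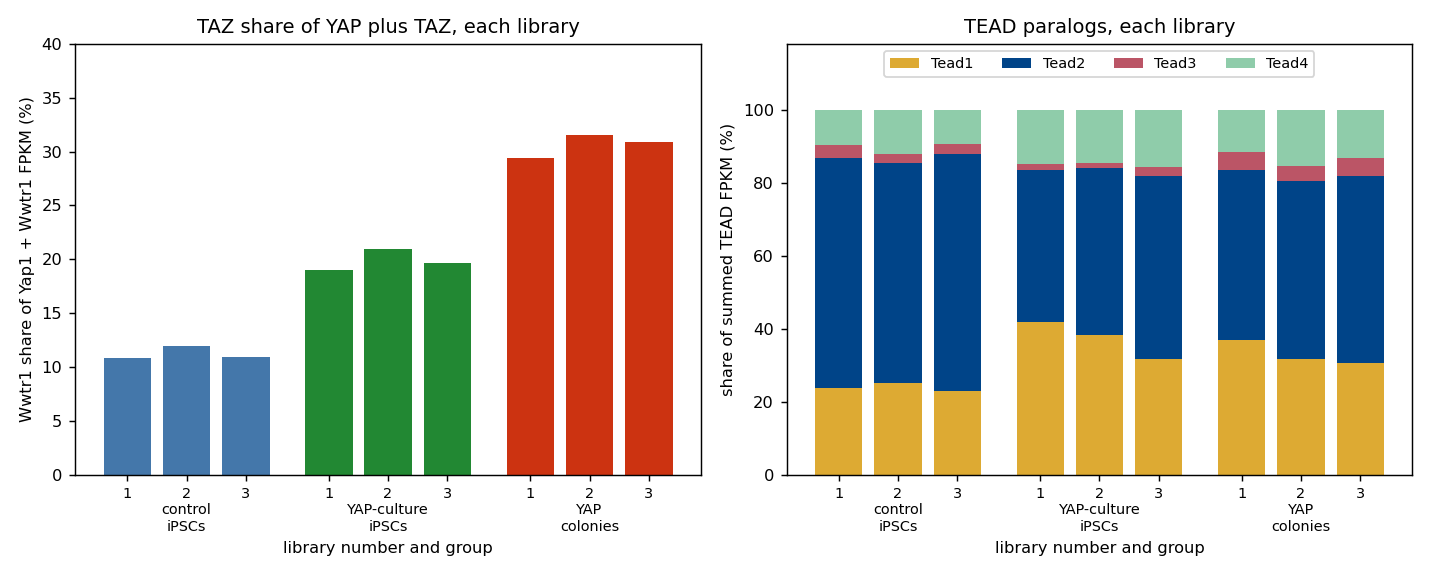
Left, the TAZ share of summed Yap1 and Wwtr1 FPKM in each library, in percent. Right, the shares of Tead1 to Tead4 in summed TEAD FPKM. The TAZ share steps from about 11% in control iPSCs to about 31% in colonies, and the control iPSCs have the highest Tead2 share.

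The vestigial-like cofactors showed the largest ratios among the 8 genes in both colony comparisons. Vgll4, the TEAD-binding antagonist of YAP, read 3.65, 2.63 and 3.15 FPKM in control iPSCs, 2.71, 1.42 and 4.69 in YAP-culture iPSCs, and 47.7, 28.5 and 27.1 in colonies (ENSMUSG00000030315, chr6:114860628-114969994). The lowest colony library, at 27.1 FPKM, lay far above the highest iPSC library, at 4.69, and the first colony library stood above the other 2. Vgll4 rose 11.7-fold against YAP-culture iPSCs (log2 fold change 3.21, SE 0.32, limma adjusted p = 3.17e-05) and 10.9-fold against control iPSCs (3.06, adjusted p = 4.11e-05). Without the first colony library these log2 changes were 2.95 and 2.80. The iPSC groups differed by -0.15, with an interval of -0.87 to 0.57 and an adjusted p of 0.766.

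The FPKM of Vgll4 relative to the sum of Yap1 and Wwtr1 was 0.0655 ± 0.00827 in control iPSCs, 0.0645 ± 0.0347 in YAP-culture iPSCs and 0.393 ± 0.140 in colonies (ratio, SD, n = 3). Relative to summed TEAD it was 0.0350, 0.0366 and 0.271. In no library did Vgll4 RNA exceed the summed co-activators. RNA ratios do not give protein ratios, and no protein was measured here.

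Vgll3 read 0.775, 0.748 and 0.737 FPKM in control iPSCs, 1.09, 1.35 and 0.957 in YAP-culture iPSCs, and 11.7, 12.3 and 9.73 in colonies (ENSMUSG00000091243, chr16:65815633-65863057). It was near the lower limit of the tested range in both iPSC groups and above 9 FPKM in each colony library. The log2 fold change was 2.52 against YAP-culture iPSCs (SE 0.12, limma adjusted p = 3.98e-07) and 2.80 against control iPSCs (adjusted p = 2.01e-07), which understates the 9.89- and 14.9-fold ratios of mean FPKM because of the added pseudocount of 1. The iPSC groups differed by 0.28 (adjusted p = 0.163). The other vestigial-like genes were too low to test. Vgll1 reached at most 0.576 FPKM in iPSCs and was listed at 0 in all colonies, while Vgll2 was listed at 0 in all iPSCs and read 0.050 to 0.244 FPKM in colonies.

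**Figure D3:**
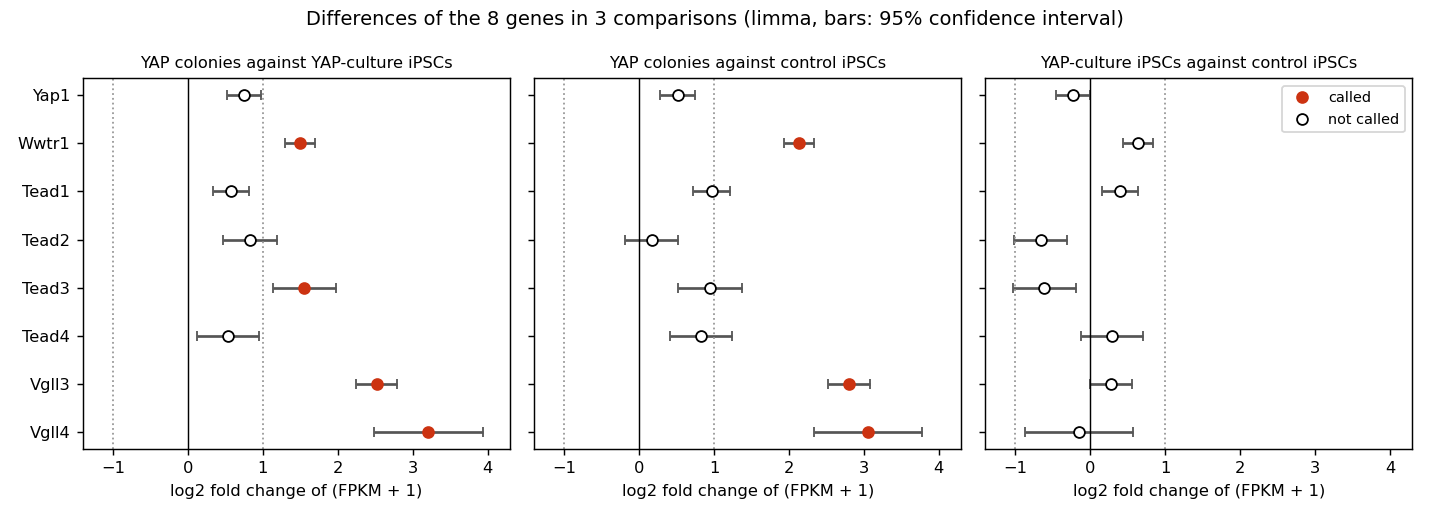
Log2 fold change of (FPKM + 1) for each gene in the 3 comparisons, with 95% confidence intervals from limma. Filled points passed both thresholds, dotted lines mark a change of 1, and the filled points are Wwtr1, Vgll3 and Vgll4 in both colony comparisons and Tead3 against YAP-culture iPSCs.

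Counted together, 4 of the 8 genes rose and 0 fell in colonies against YAP-culture iPSCs, where 15.8% of all tested genes rose and 14.5% fell, 30.3% in all. At any fold, all 8 were higher with an adjusted p below 0.05, where 30.2% of all tested genes were higher and 29.2% lower. In 7 of the 8 the groups did not overlap, Tead4 being the exception, where 31.2% of tested genes were higher and 31.5% lower without overlap. Against control iPSCs 3 of 8 rose and 0 fell, where 14.9% of tested genes rose and 17% fell, 31.8% in all. At any fold 7 were higher, all but Tead2, where 29.5% of tested genes were higher and 31.7% lower. The same 7 did not overlap control iPSCs, where 34.1% of tested genes were higher and 39.2% lower without overlap. The median log2 difference of the 8 genes was 1.16 and 0.96 in these comparisons, and that of all tested genes was 0.02 and -0.07. These counts and medians include Vgll3, which passed the filter on low values only through the colonies. Apart from it, Wwtr1, Tead3 and Vgll4 rose against YAP-culture iPSCs, and Wwtr1 and Vgll4 against control iPSCs. The comparisons share the colony libraries and are not independent. In 6 of the 8 genes every colony library exceeded all 6 iPSC libraries, where 28.1% of tested genes were higher and 27.5% lower in this way, the exceptions being Tead2 and Tead4. Between the iPSC groups 0 of 8 genes were called by limma, where 0.507% of tested genes rose and 0.884% fell, 1.39% in all. An unadjusted limma p below 0.05 was found for 6 of the 8, and for 4202 of all 13808 tested genes. With adjustment 1 of the 8 (Wwtr1) passed at any fold, where 2.36% were higher and 2.19% lower. Without overlap, 3 genes (Wwtr1, Tead1 and Vgll3) were higher in the YAP-culture iPSCs and 3 (Yap1, Tead2 and Tead3) lower, where 16.6% and 13.8% of tested genes were. In this comparison the third YAP-culture library carried weight. Without it Tead1 (0.41, adjusted p = 0.0284), Tead2 (-0.82, adjusted p = 0.00409) and Tead3 (-0.79, adjusted p = 0.00846) also had adjusted p-values below 0.05 in limma. None of them passed the fold threshold. The same held for 5154 of 13748 tested genes at any fold in that fit, against 629 of 13808 with all libraries. Tead1 and Tead2 also fell below 0.05 in limma with all libraries under median-ratio scaling (0.0369 and 0.0298) and quantile normalization (0.0382 and 0.0331).

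The order of levels differed among the groups. In control iPSCs it ran Tead2, Yap1, Tead1, Tead4, Wwtr1, Vgll4, Tead3 and Vgll3 from high to low, and only the ranges of Vgll4 and Tead3 overlapped. In YAP-culture iPSCs Yap1, Tead2 and Tead1 led with overlapping neighbours, followed by Tead4, Wwtr1 and then Vgll4, Tead3 and Vgll3, whose neighbouring ranges overlapped. In colonies Tead2 and Yap1 overlapped at the top, Tead1, Vgll4 and Wwtr1 followed with overlapping neighbours, and Tead4, Vgll3 and Tead3 closed the list. Vgll4 and Wwtr1 thus both lay above Tead4 in the colonies and below it in both iPSC groups, and Vgll3 moved above Tead3.

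Among the other genes of the pathway, 23 genes of the upstream Hippo cascade were tested. Against YAP-culture iPSCs 6 of them rose (26.1%) and 0 fell, where 15.8% of all tested genes rose and 14.5% fell, and the median log2 difference was 0.58 against 0.02 over all genes. Against control iPSCs 8 were called higher (34.8%) and 0 lower, where 14.9% of all tested genes rose and 17% fell, and the medians were 0.54 and -0.07. The second count is 7 of 22 without Lats2, which was listed at 0 in the control iPSCs. The median of 0.54 includes Lats2. Ptpn14, a phosphatase that binds YAP and favours its retention in the cytoplasm, was 8.74 ± 1.27, 9.74 ± 3.86 and 58.5 ± 4.07 FPKM in control iPSCs, YAP-culture iPSCs and colonies (SD, n = 3). The kinase gene Lats2, itself a known YAP target, was listed at 0 in all control iPSCs, read 3.24, 3.18 and 2.30 FPKM in YAP-culture iPSCs, and 12.3, 16.8 and 13.5 FPKM in colonies. It was the 1 cascade gene called between the iPSC groups, but a listed 0 may stand for an estimate that failed, so this call is not read as a rise and no fold is given.

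Of 13 tested genes for proteins that retain, phosphorylate or degrade YAP and TAZ, 0 rose and 1 fell (7.69%) in each colony comparison, where 15.8% of all tested genes rose and 14.5% fell against YAP-culture iPSCs, and 14.9% and 17% against control iPSCs. The gene that fell was Sfn, which encodes a phosphoserine-binding protein of the family that holds YAP in the cytoplasm, at 36.5 ± 4.58, 16.8 ± 11.4 and 1.32 ± 0.648 FPKM in the 3 groups. Its log2 fold change was -2.80 against YAP-culture iPSCs and -4.05 against control iPSCs. The list's median log2 differences were -0.13 and -0.30, and those of all tested genes 0.02 and -0.07.

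A further list held transcription factors and cofactors, other than TEAD, named as partners of YAP or TAZ. Of its 8 tested genes, 1 was called higher and 3 lower against YAP-culture iPSCs, and 2 higher and 2 lower against control iPSCs. Of all tested genes 30.3% and 31.8% were called in either direction in these comparisons. The list's median log2 differences over all 8 genes were 0.56 and 0.66. Smad3, a TGF-beta effector that TAZ binds, was 4.69 ± 0.559, 4.41 ± 0.406 and 19.4 ± 1.21 FPKM in control iPSCs, YAP-culture iPSCs and colonies. Klf5, a Kruppel-like factor of epithelial and pluripotent cells, fell from 32.8 ± 3.09 and 33.6 ± 5.42 FPKM to 1.70 ± 0.307 FPKM. Smad7, an inhibitory Smad, fell to 3.01 ± 0.326 FPKM from means of 27.3 and 30.6 FPKM. Smad4 rose against control iPSCs (log2 fold change 1.06). Pax8 was the other gene called lower against YAP-culture iPSCs. It was listed at 0 in all colonies and passed the filter on low values only through the YAP-culture iPSCs, so it is not read as a fall. It is named here after its values were seen. The remaining 7 of 15 listed partners, among them all 3 Runx genes, were below the filter.

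Of 16 tested genes commonly used as YAP/TAZ-TEAD targets, 10 were called higher and 1 lower against YAP-culture iPSCs, where 15.8% of all tested genes were higher and 14.5% lower, and the median log2 difference was 1.57. Against control iPSCs 11 were called higher and 1 lower, where 14.9% and 17% of all tested genes were, and the median was 1.61. Tgfb2 and Crim1 are among those called higher but passed the filter on low values only through the colonies, where they were high. Without these 2 genes, and without Lats2 where it was listed at 0, the counts were 8 higher and 1 lower of 14 against YAP-culture iPSCs, and 8 higher and 1 lower of 13 against control iPSCs. The medians of 1.57 and 1.61 include these genes and were not recomputed without them. Crim1 is named here after its values were seen. Lats2, Ptpn14 and Amotl2 are on this list and on the cascade list. The receptor kinase gene Axl was at means of 0.883, 1.30 and 29.4 FPKM in control iPSCs, YAP-culture iPSCs and colonies. The growth factor gene Tgfb2 was at 0.166, 0.0878 and 13.4 FPKM. The stress gene Gadd45a was the 1 that fell, from 67.3 and 44.2 to 15.7 FPKM. Between the iPSC groups 2 targets were called higher, Lats2 against its listed zeros and Ctgf, where 0.507% of all tested genes were called higher. Ctgf, a secreted matricellular factor, was 23.5 ± 1.77 FPKM in control iPSCs, 49.4 ± 3.23 in YAP-culture iPSCs and 26.8 ± 6.31 in colonies, a log2 fold change of 1.04 between the iPSC groups (limma adjusted p = 0.0198).

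**Figure D4:**
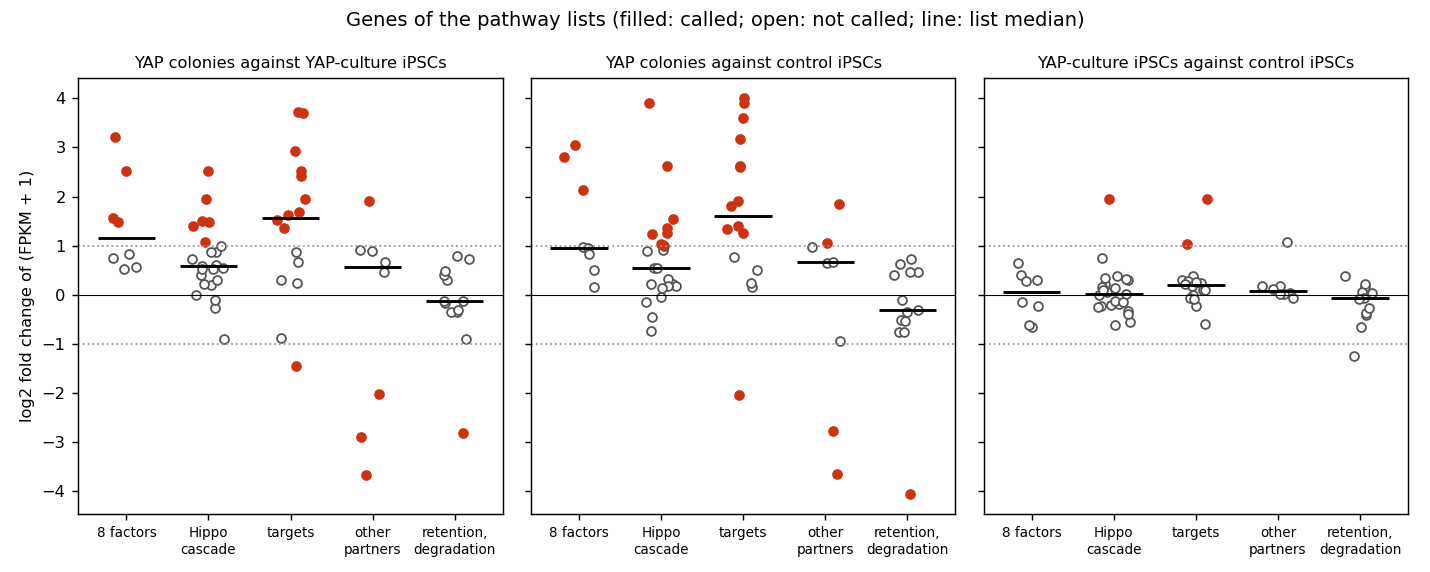
Log2 fold change of (FPKM + 1) of each tested gene of 5 lists in the 3 comparisons, with the list median as a line and called genes filled. The targets have the highest medians in both colony comparisons, at 1.57 and 1.61, and the genes for retention and degradation the lowest.

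Markers of fibroblasts, the usual feeder cells, were examined beside these levels. The 12 markers summed to 5.51 to 7.62 FPKM in control iPSCs, 5.11 to 10.4 in YAP-culture iPSCs and 34.6 to 43.8 in colonies. Without overlap, 5 of the 12 were higher and 2 lower in colonies than in YAP-culture iPSCs, where 31.2% of tested genes were higher and 31.5% lower. Against control iPSCs 7 were higher and 2 lower, where 34.1% and 39.2% of tested genes were. The shares are over genes with a mean of at least 1 FPKM, whereas the markers were not filtered, so they are not like for like. In each iPSC group 11 of the 12 markers had means under 1 FPKM. Most of the sum in colonies came from Thy1 (mean 22.9 FPKM) and Dcn (8.63), while Col1a1 and Col1a2, defining collagens of fibroblasts, were at means of 2.60 and 2.13 FPKM. Of the 12 markers 7 were under 1 FPKM in the colonies, and Twist2 was listed at 0 in all 3 colony libraries. The part of feeder or residual fibroblasts in the levels of the 8 genes was not tested.

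Each gene's nearest profile over the 9 libraries was sought among the tested genes without gene-model or clone names. The measure was the root-mean-square difference of log2(FPKM + 1) after centring each gene. Yap1 was nearest to Lclat1 (0.0558) and Bod1 (0.0737), Wwtr1 to Zfp365 (0.0774) and Ddah1 (0.0957), and Tead1 to Zfp426 (0.0572) and Anapc1 (0.0592). Tead2 was nearest to Taok2 (0.0755), a kinase of the cascade list, and Dnmbp (0.0776). Tead3 was nearest to Plppr2 (0.0952) and Slc22a17 (0.0967), Tead4 to Fzd5 (0.102) and Golm1 (0.107), and Vgll3 to Cdk14 (0.085) and Abca5 (0.0925). Vgll4 had no comparably close profile among the genes searched, with Zcchc18 (0.260) and Fosb (0.270) nearest. Among the 8 genes, Tead1 and Tead4 were closest to each other (0.205), and the nearest member to Wwtr1 was Vgll3 (0.444) rather than Yap1. These distances describe 9 libraries in 3 groups and carry no test.

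The gene-level values were open to little sharing of reads among the 8 genes. Transcript stretches of 50 bases shared with any other annotated gene made up 0.548% of Yap1, 0.181% of Tead1, 0.144% of Tead3 and 0.272% of Tead4, and none of the other 4 genes, and Tead3 and Tead4 shared theirs with each other. Among overlapping genes on the opposite strand, Cd37 at Tead2 and Gm20416 at Yap1 were listed at 0 in all libraries. Gm16016 at Wwtr1 reached at most 0.458 FPKM and Gm21893 at Tead4 at most 1.08 FPKM. The transcript 2310014F06Rik at the Tead1 start read 0.0369 to 2.47 FPKM, highest in the colonies. Whether the authors' counting used strand is not given in the sources used here, so reads of overlapping genes cannot be told apart.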

How the data were processed

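The 9 mouse libraries, 3 in each group, were made from polyadenylated RNA with a stranded kit, per the labels' protocols. TopHat, Cufflinks and the build mm10 are named in the submitters' processing notes, and versions and settings are not given in the sources used here. Values were deposited as FPKM, 1 row a gene and 1 column a library, and the columns were matched to samples by their names. Depth could not be recovered, so no counting interval is given. A value of exactly 0 may stand for an estimate that failed, since 315 rows held both a 0 and a value over 20 FPKM, and such values are described as listed at 0.

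limma 3.58.1 (R 4.3.3) was fitted once to all libraries on the scale log2(FPKM + 1), with a mean for each of the 3 groups and a variance prior that follows expression. The 13808 rows whose mean reached 1 FPKM were tested. Tests were two-sided with Benjamini-Hochberg adjustment over all tested rows, and a call needed an adjusted p below 0.05 together with a log2 change of 1 or more in size. Intervals are 95% limma intervals. The procedure was tested on simulated data. Shares and ratios of FPKM were described without a test.

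The 8 genes, the gene lists and the tests were chosen with earlier results of these data known. Genes named from a list are the 2 called genes with the largest change in each direction, and nearest profiles are the 2 nearest genes without gene-model names. Positions follow the deposited table, and overlaps and shared stretches come from GENCODE M21 on the same build. Promoters were matched by gene symbol to RefSeq windows, without those of mouse chromosome 18. The alternatives tried were pseudocounts, filters, scalings, a replicate block, fits to only the groups compared, a test against the fold threshold and each library left out. Protein-coding rows scaled to equal totals and both third-numbered iPSC libraries left out were added after seeing the data.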

Additional observations from a re-analysis of the deposited data

How the results depend on the processing

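Wwtr1 and Vgll4 were called higher in colonies in both comparisons in all 19 refits, and Vgll3 in all 18 that tested it. The test against the fold threshold also called these 3 genes. Vgll3 passed the filter on low values only through the colonies, and its repeated calls carry that limit. The count of genes called against YAP-culture iPSCs was 4 in every leave-one-out fit and 2 with a minimum mean of 5 FPKM, under which Tead3 and Vgll3 were not tested. Against control iPSCs it was 3 to 5 in the leave-one-out fits, with 5 without control iPSC library 1, and 5 with protein-coding rows scaled to equal totals, Tead1 and Tead3 being the added genes. In that fit, which tested 11403 rows in place of 13808, the median log2 difference against control iPSCs was 0.09, against -0.07 otherwise. Scaling and the set of rows changed together there, and their parts were not separated. Between the iPSC groups the count was 0 under every alternative run, and Vgll4 moved from -0.15 to between -0.46, without YAP-culture iPSC library 3, and 0.16, without library 2.

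Over all tested genes, calls against YAP-culture iPSCs went from 4184 to 2108 with a pseudocount of 5, 2421 with a minimum of 5 FPKM and 2369 with a test against the fold threshold. Against control iPSCs they went from 4396 to 2259, 2599 and 2496 under the same settings. Between the iPSC groups they went from 192, 70 higher and 122 lower, to 57, 114 and 12 under these settings, to 36 with only these groups fitted, and to 1062 without both third-numbered iPSC libraries. Leaving out 1 library gave 51 to 1052, the latter without YAP-culture library 3. Quantile normalization gave 141 higher and 132 lower. The causes were not tested.

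No pairing of the samples by replicate number was evident. Deviations of same-numbered libraries correlated at -0.141 to 0.188, and those of differently numbered libraries at -0.182 to 0.212. With 3 libraries a group these values cannot exclude a pairing. With the replicate block the 8 genes' calls were 4, 3 and 0 as before, and calls over all genes were 4184, 4398 and 160. FPKM without depth gives no detection limit for Vgll3 and Tead3, the lowest genes.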
